A study of Mus musculus with 8 samples.

Results

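The 10 genes of the fetal LIN28, HMGA and IGF2BP programme were followed through 4 groups of Ebf1-deficient pro-B cells: Lin28a, Lin28b, Hmga1, Hmga2, Igf2bp1, Igf2bp2, Igf2bp3, Igf2, H19 and Arid3a. They were chosen by symbol, as every non-control probe whose transcript accession maps to one of the 10 genes. This gave 17 probes of the 39378 probes analysed, for 10 of 20126 named genes. Of the genes, 6 had several probes and 4 had 1 probe. A spot was called well above background by the scanner software. Of the 17 probes, 15 passed that flag on both arrays of 1 or more groups, for 9 of the 10 genes, and 9 probes passed it on 8 of 8 arrays.

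The cells were lines of hematopoietic progenitors from mouse fetal liver that lack EBF1, a transcription factor needed for B-lineage commitment, and each group had 2 one-colour arrays of total RNA. Pro-B(+) cells were raised on OP9 stromal cells and can still give rise to T-lineage cells, whereas pro-B(−) cells were raised on TD7 thymic stromal cells and cannot. Pro-B(−)/Mock and pro-B(−)/LMO2 were pro-B(−) cells given an empty vector or a vector for Lmo2, the gene of a LIM-domain adaptor protein of hematopoietic transcription factor complexes, and are called empty-vector cells and Lmo2 cells here. The vector was lentiviral with a rat CD2 marker, and the labels do not give the stroma or Notch ligand on which the transductants were kept. All 4 groups share the Ebf1 deficiency and the fetal liver origin, so none of them is an adult reference for a fetal programme, and each parental type is represented here by 1 cell line label with no statement of clones. The titles do not say whether the 2 arrays of a group came from separate cultures, so p-values measure the spread between these arrays, which may be technical.

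LIN28A and LIN28B are RNA-binding proteins that bind the precursors of let-7 microRNAs and block their maturation. Mature let-7 in turn represses mRNAs that include Lin28b, Hmga2, Igf2bp1, Igf2bp2, Igf2bp3 and Arid3a, and this circuit is best known in blood formation for separating fetal from adult stem cells and lymphoid progenitors. HMGA1 and HMGA2 are architectural chromatin proteins, IGF2BP1 to IGF2BP3 bind and stabilise mRNAs, IGF2 is a fetal growth factor, H19 is a long noncoding RNA imprinted opposite to Igf2, and ARID3A is a DNA-binding protein linked to fetal B lymphopoiesis.

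The let-7 sequences are shown because they link LIN28A and LIN28B to the members named above as let-7 targets, although no microRNA was measured on these arrays. RefSeq (GRCm38.p6) held 9 distinct mature 5p sequences of the family, and 9 of 9 shared the seed, bases 2 to 8, which is in capitals.
let-7a-5p: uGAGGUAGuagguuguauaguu
let-7b-5p: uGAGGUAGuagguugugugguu
let-7c-5p: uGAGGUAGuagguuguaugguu
let-7d-5p: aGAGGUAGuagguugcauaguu
let-7e-5p: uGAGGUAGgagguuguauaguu
let-7f-5p: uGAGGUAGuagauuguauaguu
let-7g-5p: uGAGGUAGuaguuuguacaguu
let-7i-5p: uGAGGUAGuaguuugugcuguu
miR-98-5p: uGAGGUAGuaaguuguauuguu

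The hairpins carry the part that LIN28 proteins read. The tetranucleotide GGAG, known as the contact of the LIN28 zinc knuckles, was searched on the transcribed strand between the mature arms and was present in 9 of 12 let-7 family hairpins in the RefSeq table (GRCm38.p6). It was not found in Mirlet7b, Mirlet7c-2 and Mir98. Below are 2 hairpins that hold it and 1 that does not, with GGAG in capitals. Each is the whole RefSeq hairpin entry, labelled pre- here, and extends beyond the mature arms.
pre-let-7a-1, chr13:48538179-48538272 (- strand): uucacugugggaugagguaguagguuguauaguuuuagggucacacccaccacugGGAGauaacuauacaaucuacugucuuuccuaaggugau
pre-let-7g, chr9:106178840-106178927 (+ strand): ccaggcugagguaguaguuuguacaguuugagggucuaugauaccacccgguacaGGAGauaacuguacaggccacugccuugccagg
pre-let-7b, chr15:85707319-85707403 (+ strand): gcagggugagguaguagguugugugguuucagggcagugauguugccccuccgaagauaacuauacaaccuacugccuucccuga

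Lin28b gave the sharpest boundary among the members, and it lay between the parental lines and the transductants. Its brighter probe (A_55_P1970905) had normalized log2 signals of 2.30 and 2.32 in pro-B(+) and of 0.41 and 0.43 in pro-B(−), where 0 is the 75th percentile of the array's intensities. On the 4 transductant arrays the same probe was not well above background, with measured values of -8.20 and -7.81 in empty-vector cells and of -6.55 and -8.10 in Lmo2 cells. The groups did not overlap between the parental lines and the transductants, nor between pro-B(+) and pro-B(−).

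The signal in pro-B(+) was 3.71-fold that in pro-B(−) (log2 difference 1.89, SE 0.48, limma adjusted p = 0.0233). The SE of that fit takes in the spread of the transductant arrays, which were below background, and in a fit of the 4 parental arrays alone the SE was 0.04 and the adjusted p was 0.000121. When any 1 array of a parental line was left out of the full fit, the adjusted p rose to between 0.0827 and 0.0941 at differences of 1.88 to 1.90. Against pro-B(−), the empty-vector signal was at least 91.6-fold lower (adjusted p = 9.79e-05). Against pro-B(+), the Lmo2 signal was at least 320-fold lower (adjusted p = 2.09e-05). These p-values test the fitted log2 differences of -8.42 and -9.64, which use the measured signals below background, and not the bounds.

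The second Lin28b probe (A_52_P532355) also placed pro-B(+) above pro-B(−) and both above the transductants. It read -2.30 and -2.43 in pro-B(+), -3.91 and -3.86 in pro-B(−), -8.44 and -8.11 in empty-vector cells, and -7.98 and -8.39 in Lmo2 cells, with neither transductant well above background. Pro-B(+) was 2.87-fold above pro-B(−) (log2 difference 1.52, SE 0.17, adjusted p = 0.000969), and the empty-vector signal was at least 4.63-fold below pro-B(−) (adjusted p = 2.90e-05). Each bound is set by the lowest signal among probes well above background on an array, so the dimmer probe allows only a smaller one. No value for Lmo2 against empty vector exists for Lin28b, since both groups were below background by both probes.

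All 4 parental arrays were on 1 slide and all 4 transductant arrays on another, so vector, culture, slide and scan cannot be told apart in any comparison that crosses from parent to transductant. Pro-B(+) against pro-B(−) and Lmo2 cells against empty-vector cells each lie within 1 slide. In bulk RNA, fewer cells of a type and less RNA per cell cannot be told apart either. Among 12885 named genes ranked by their change from pro-B(−) to empty-vector cells, with values below background set to the floor, Lin28b stood at place 4 from the largest fall.

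The genes next to Lin28b on chromosome 10 did not share that fall as a block. They are the 3 nearest genes on each side with a probe well above background on both arrays of a group, in the order of the RefSeq table, and they were examined after the Lin28b values were known. From pro-B(−) to empty-vector cells, Prep changed by -0.09 on the log2 scale (adjusted p = 0.0766), Atg5 by 0.03 (adjusted p = 0.521) and Hace1 by 0.14 (adjusted p = 0.153), none of which passed the test. Lilrb4a, an inhibitory receptor gene, fell by 2.08 (adjusted p = 9.11e-06). Its neighbour Lilr4b had a mean of -4.96 in pro-B(−) and was not well above background in empty-vector cells, and Bves was not well above background in pro-B(−) and read -4.75 in empty-vector cells.

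**Figure D1:**
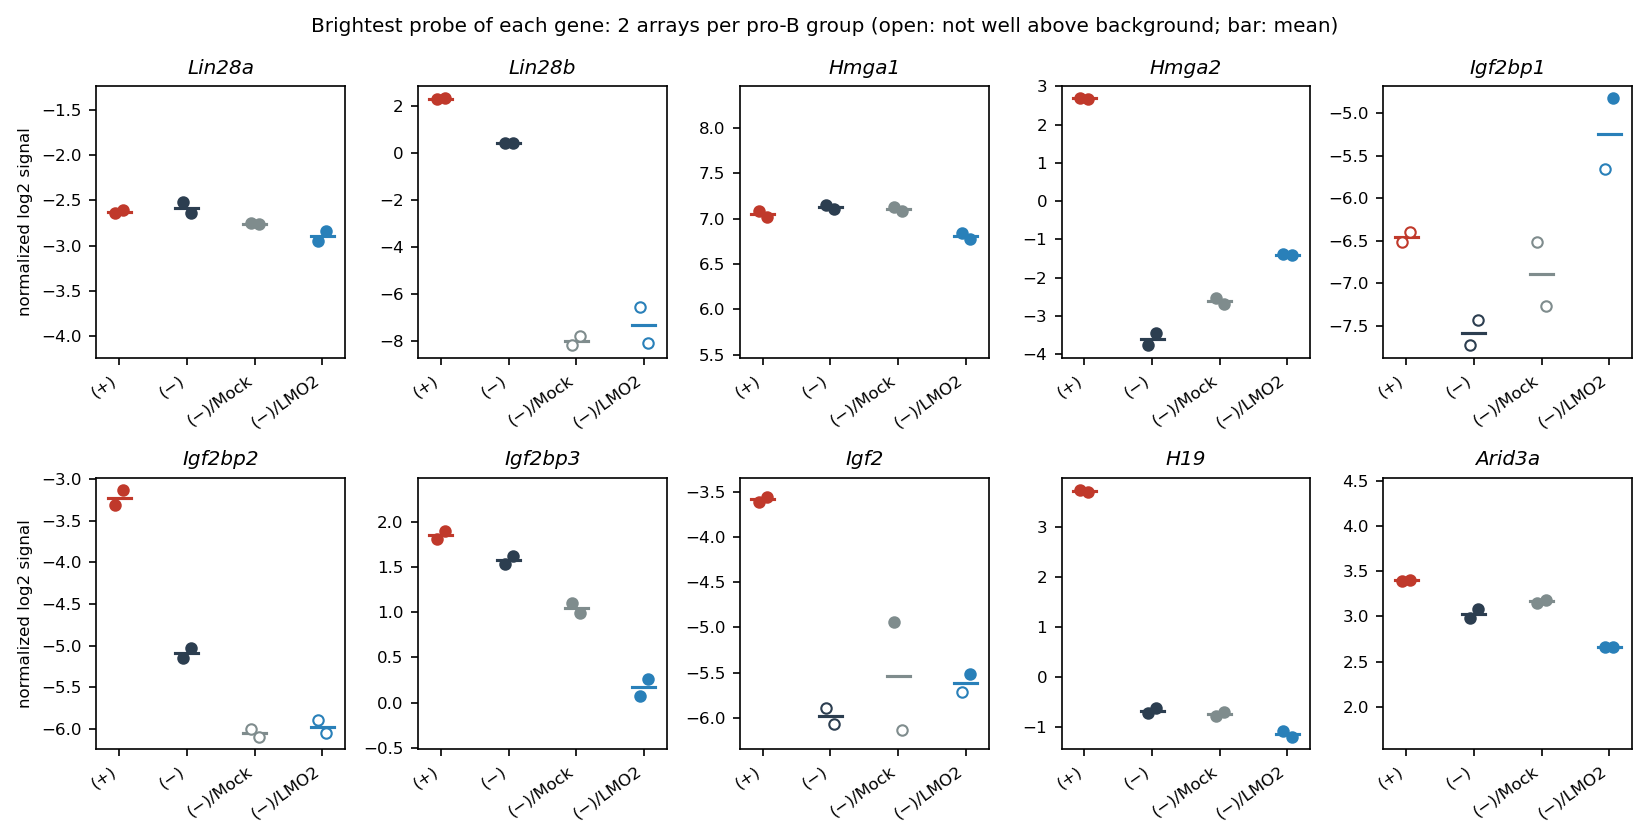
Normalized log2 signal (y axis, a separate range in each panel) of the brightest probe of each of the 10 genes in the 4 pro-B groups (x axis). Points are single arrays, open points are arrays on which the probe was not well above background, and bars are means of 2 arrays. Lin28b was well above background in both parental lines only, Hmga2 and H19 were highest in pro-B(+), and Igf2bp3 was lowest in Lmo2 cells.

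Lin28a differed little across the groups. Its probe (A_55_P2074371) read -2.64 and -2.61 in pro-B(+), -2.52 and -2.64 in pro-B(−), -2.75 and -2.76 in empty-vector cells, and -2.95 and -2.84 in Lmo2 cells. The parental lines overlapped, and their difference of -0.04 (SE 0.06) did not pass the test (adjusted p = 0.571). The difference of Lmo2 cells from empty-vector cells was -0.14 (SE 0.06, adjusted p = 0.0865). With arrays scaled to their median in place of the 75th percentile, these differences were -0.33 (adjusted p = 0.0042) and -0.35 (adjusted p = 0.00355), a scaling that moved the median of all probes tested from -0.04 to -0.33 in the first comparison and from -0.04 to -0.25 in the second.

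Hmga2 was the member with the widest range among genes well above background on all arrays. Its brighter probe (A_52_P300730) read 2.68 and 2.68 in pro-B(+), -3.77 and -3.44 in pro-B(−), -2.52 and -2.68 in empty-vector cells, and -1.38 and -1.40 in Lmo2 cells. The 4 groups did not overlap, and the order of the means was pro-B(+), Lmo2 cells, empty-vector cells and pro-B(−). Pro-B(+) was 77.9-fold above pro-B(−) (log2 difference 6.28, SE 0.11, adjusted p = 1.31e-06), which was place 20 of 13219 named genes from the highest.

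With Lmo2, Hmga2 was 2.31-fold above empty vector (log2 difference 1.21, SE 0.11, adjusted p = 0.000354). It remained 16.9-fold below pro-B(+) (log2 difference -4.07, SE 0.11, adjusted p = 3.02e-06). The empty-vector cells stood 2.00-fold above pro-B(−) (log2 difference 1.0, SE 0.11, adjusted p = 0.00113), across slides, a difference of 0.54 with normexp background correction (adjusted p = 0.000407). The parental difference exceeded that of Lmo2 over empty vector by 5.08 on the log2 scale (SE 0.16, adjusted p = 1.61e-05).

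The second Hmga2 probe (A_55_P2043921) gave the same order at lower signals. It read 0.36 and 0.40 in pro-B(+), -4.91 and -5.26 in empty-vector cells, and -3.95 and -3.94 in Lmo2 cells, and it was not well above background in pro-B(−), at -8.16 and -7.84. Pro-B(+) was at least 72.9-fold above pro-B(−) by this probe (adjusted p = 1.11e-06), and Lmo2 over empty vector was 2.21-fold (log2 difference 1.14, SE 0.14, adjusted p = 0.00109).

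The nearest measured genes to Hmga2 on chromosome 10 were also read after its values were known. In pro-B(+) against pro-B(−), Llph changed by -0.04 (adjusted p = 0.504) and Lemd3 by 0.08 (adjusted p = 0.209), and Tmbim4 differed by -0.30 (adjusted p = 0.00207). Msrb3, a methionine sulfoxide reductase, and Irak3, a negative regulator of Toll-like receptor signaling, were well above background in pro-B(+), at means of -4.80 and -4.13, and not in pro-B(−). Tbc1d30 fell by 1.66 (adjusted p = 0.000278), though only 1 of 2 pro-B(+) arrays was well above background.

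The 250 bases before the RefSeq starts of Lin28b and Hmga2 (GRCm38.p6) are printed because these 2 let-7 targets differed in opposite ways between pro-B(−) and its transductants. CG dinucleotides are in capitals.
Lin28b, chr10:45470202-45470451 (- strand): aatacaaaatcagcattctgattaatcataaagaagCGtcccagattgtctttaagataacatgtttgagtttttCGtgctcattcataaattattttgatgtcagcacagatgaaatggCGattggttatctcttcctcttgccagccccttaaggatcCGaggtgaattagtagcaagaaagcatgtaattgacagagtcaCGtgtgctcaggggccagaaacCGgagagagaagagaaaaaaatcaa
Hmga2, chr10:120476470-120476719 (- strand): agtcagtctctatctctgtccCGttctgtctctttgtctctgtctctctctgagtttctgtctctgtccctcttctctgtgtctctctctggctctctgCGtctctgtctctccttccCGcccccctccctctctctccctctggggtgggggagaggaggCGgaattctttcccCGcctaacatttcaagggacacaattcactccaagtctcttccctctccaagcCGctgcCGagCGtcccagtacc

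The Lin28b window held 6 CG dinucleotides and the Hmga2 window 8, against a median of 6 over 32851 promoter windows of that length. Each motif was searched on both strands. The letters CANNTG, a palindromic E-box, occurred 2 times before Lin28b and 0 times before Hmga2, and 66.2% of all windows hold them. The letters GATAA occurred 2 times before Lin28b and 0 times before Hmga2, against 22.6% of all windows. TGTGGT, the core bound by RUNX proteins, was in neither window, nor was CGGAAG, an ETS-type core, against 14.0% and 13.6% of all windows. These are matches of letters in a short window and say nothing of binding.

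Hmga1 was bright in all groups. Its brightest probe (A_51_P483118) read 7.08 and 7.02 in pro-B(+), 7.15 and 7.11 in pro-B(−), 7.13 and 7.08 in empty-vector cells, and 6.85 and 6.78 in Lmo2 cells. Both pro-B(+) arrays lay below both pro-B(−) arrays, each parental line overlapped with empty-vector cells, and the parental difference of -0.08 (SE 0.05) did not pass the test (adjusted p = 0.200). It was 1.23-fold lower with Lmo2 than with empty vector (log2 difference -0.30, SE 0.05, adjusted p = 0.00237). A second probe (A_55_P2076057) was 1.30-fold lower in the same comparison (adjusted p = 0.000218) and 1.13-fold lower in pro-B(+) than pro-B(−) (adjusted p = 0.00672), and the third (A_66_P102232), the dimmest, differed by -0.13 (SE 0.09, adjusted p = 0.241) and 0.10 (SE 0.09, adjusted p = 0.385) in these comparisons. With median scaling the brightest probe was also called lower in pro-B(+) (log2 difference -0.36, adjusted p = 0.00183).

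The mRNA-binding proteins of the IGF2BP family behaved differently from one another. Igf2bp3 was well above background throughout, at 1.81 and 1.90 in pro-B(+), 1.53 and 1.62 in pro-B(−), 1.1 and 0.99 in empty-vector cells, and 0.07 and 0.26 in Lmo2 cells (A_52_P508974). The 4 groups did not overlap. With Lmo2 it was 1.84-fold lower than with empty vector (log2 difference -0.88, SE 0.08, adjusted p = 0.000304), and 3.22-fold lower than pro-B(+) (adjusted p = 1.73e-05). Empty-vector cells were 1.44-fold below pro-B(−) (adjusted p = 0.00303).

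The parental difference in Igf2bp3 was small, 1.21-fold higher in pro-B(+) (log2 difference 0.28, SE 0.08, adjusted p = 0.0338). It was not stable to the processing: with median scaling it was -0.0039 (adjusted p = 0.967), and the call was lost when any 1 parental array was left out (differences 0.24 to 0.32, adjusted p 0.0674 to 0.152) or empty-vector replicate 2 was (adjusted p = 0.0509). The parental and the Lmo2 differences had opposite signs in the main scaling and differed from each other by 1.16 (SE 0.11, adjusted p = 0.000612).

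Igf2bp2 was dim and was detected mainly in pro-B(+). Its brighter probe (A_51_P315682) read -3.32 and -3.13 in pro-B(+) and -5.15 and -5.03 in pro-B(−), and it was not well above background in empty-vector cells, at -6.00 and -6.10, or in Lmo2 cells, at -5.89 and -6.05. Pro-B(+) was 3.66-fold above pro-B(−) (log2 difference 1.87, SE 0.09, adjusted p = 3.83e-05). The empty-vector signal was at least 1.85-fold below pro-B(−) (adjusted p = 0.000587), a difference that fell to -0.06 (adjusted p = 0.422) with another background correction.

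The second Igf2bp2 probe (A_55_P2170737) read -4.24 and -4.07 in pro-B(+). It was not well above background in pro-B(−), at -6.39 and -6.43, or in Lmo2 cells, at -5.59 and -6.80. In empty-vector cells its replicates disagreed, with -6.55 below background and -3.37 well above it. The parental difference, at least 3.14-fold, had an adjusted p of 0.123 in the full fit, and of 0.000249 when the 4 parental arrays were fitted alone.

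Igf2bp1 could not be compared. Its only probe (A_51_P497113) was not well above background on 7 of 8 arrays, with values from -7.73 to -5.65, and reached -4.83 on 1 Lmo2 array, so no group had it on both arrays.

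H19 separated pro-B(+) from the other 3 groups. Its brighter probe (A_55_P1961127) read 3.73 and 3.69 in pro-B(+), -0.71 and -0.62 in pro-B(−), -0.77 and -0.70 in empty-vector cells, and -1.08 and -1.19 in Lmo2 cells. Pro-B(+) stood apart from all other arrays, pro-B(−) and empty-vector cells overlapped, and Lmo2 cells were lowest. The difference between the parental lines was 20.8-fold (log2 difference 4.38, SE 0.06, adjusted p = 6.27e-07), place 85 of 13219 genes from the highest. H19 was 1.32-fold lower with Lmo2 than with empty vector (log2 difference -0.40, SE 0.06, adjusted p = 0.0017), and the 2 effects differed by 4.78 (SE 0.08, adjusted p = 4.09e-06).

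A second H19 probe (A_55_P1961125), listed under the same accession, was not well above background on any array, with values from -8.06 to -5.92. The 2 probes therefore disagree on whether H19 is detected, and the H19 result rests on the brighter one. RefSeq places the microRNA miR-675 within H19 (GRCm38.p6, minus strand of chromosome 7), and its mature forms are shown with seeds in capitals as the product that this transcript can yield. It was not measured.
miR-675-5p: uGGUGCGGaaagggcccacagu, chr7:142577112-142577133
miR-675-3p: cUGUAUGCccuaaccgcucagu, chr7:142577078-142577099

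Igf2, the partner of H19 in the imprinted domain, was faint. Its probe (A_55_P2118173) read -3.61 and -3.56 in pro-B(+) and was not well above background in pro-B(−), at -5.89 and -6.07. In empty-vector cells 1 array was well above background at -4.95 and the other was not, at -6.13, and in Lmo2 cells the values were -5.72, not well above background, and -5.52, well above it. Pro-B(+) was at least 4.55-fold above pro-B(−) (adjusted p = 0.00362) and 4.09-fold above Lmo2 cells (log2 difference of Lmo2 cells -2.03, SE 0.37, adjusted p = 0.00353).

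Other genes around H19 on chromosome 7, read after its values were known, moved to different extents. Mrpl23, a mitochondrial ribosomal protein gene, changed by -0.10 in pro-B(+) against pro-B(−) (adjusted p = 0.0641), Ins2 by 0.13 (adjusted p = 0.370) and Th by -0.05 (adjusted p = 0.682). Tnnt3 rose by 1.72 (adjusted p = 1.16e-05) and Lsp1, a leukocyte cytoskeletal protein gene, by 1.54 (adjusted p = 2.00e-06). Igf2os, antisense to Igf2, had a mean of -3.47 in pro-B(+) and -4.65 in Lmo2 cells and was not well above background in the other groups. With Lmo2, Lsp1 rose by 1.20 over empty vector (adjusted p = 5.19e-06) and Tnnt3 by 1.07 (adjusted p = 5.86e-05), in contrast to the sign for H19.

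Arid3a was measured by 2 probes on all arrays. The brighter (A_55_P1952166) read 3.39 and 3.41 in pro-B(+), 2.98 and 3.08 in pro-B(−), 3.15 and 3.19 in empty-vector cells, and 2.66 and 2.66 in Lmo2 cells. The second (A_55_P2182358) read 2.55 and 2.55, 2.18 and 2.15, 1.85 and 1.92, and 1.43 and 1.44 in the same groups. By both probes pro-B(+) was highest and Lmo2 cells lowest, and only the order of pro-B(−) and empty-vector cells turned between them, with differences from pro-B(−) to empty-vector cells of 0.14 (adjusted p = 0.0423) and -0.28 (adjusted p = 0.00205).

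Arid3a was 1.42-fold lower with Lmo2 than with empty vector by the brighter probe (log2 difference -0.51, SE 0.04, adjusted p = 0.000259) and 1.37-fold lower by the other (adjusted p = 0.000233). It was 1.29-fold higher in pro-B(+) than pro-B(−) (log2 difference 0.37, SE 0.04, adjusted p = 0.0014) and 1.31-fold higher by the other probe (adjusted p = 0.000649). With median scaling the parental differences were 0.09 (adjusted p = 0.143) and 0.10 (adjusted p = 0.0841). The parental difference of the brighter probe exceeded the Lmo2 difference by 0.88 (SE 0.06, adjusted p = 0.000209).

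**Figure D2:**
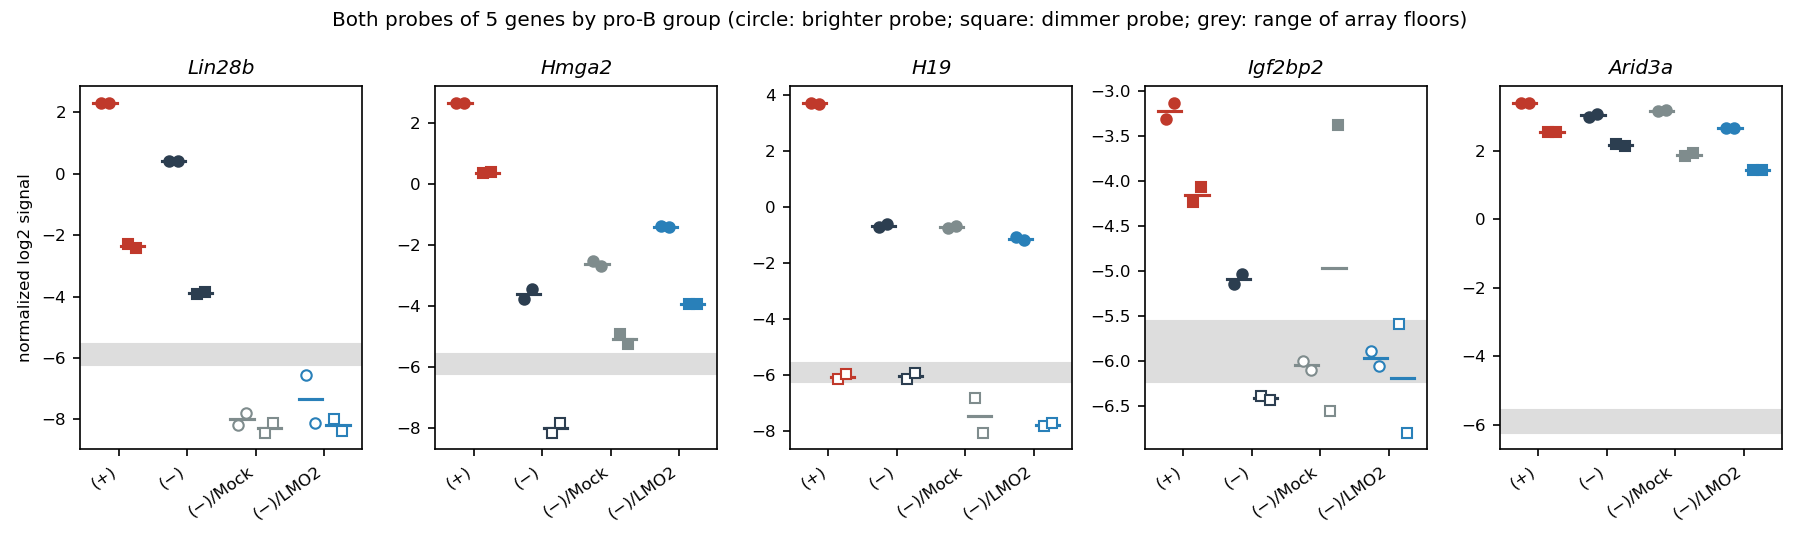
Normalized log2 signal (y axis, a separate range in each panel) of both probes of Lin28b, Hmga2, H19, Igf2bp2 and Arid3a in the 4 pro-B groups (x axis), with open symbols for arrays not well above background and bars for means of 2 arrays. The grey band spans the lowest signal among probes well above background over the 8 arrays, -6.24 to -5.56. Both probes of Lin28b fell below it in the transductants, and the second H19 probe was open on all 8 arrays.

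Counted over the members by their brightest probe, 7 of 9 genes tested were called higher in pro-B(+) than pro-B(−), 0 were called lower, and 2, Lin28a and Hmga1, were not called. Over all named genes 25.4% were called higher and 26.7% lower. Igf2 entered this test through pro-B(+) alone, so a difference was built into its entry. With median scaling 5 were called higher, 2 lower (Lin28a and Hmga1) and 2 not (Igf2bp3 and Arid3a).

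With Lmo2 against empty vector, 6 members were tested, 1 was called higher (Hmga2), 4 were called lower (Hmga1, Igf2bp3, H19 and Arid3a) and 1, Lin28a, was not called but was lower with median scaling. The background was 30.7% called higher and 37.4% lower. Lin28b, Igf2bp1, Igf2bp2 and Igf2 had no group with both arrays well above background in this comparison.

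From pro-B(−) to empty-vector cells, 8 members were tested, with 2 called higher (Hmga2 and Arid3a) and 4 called lower (Lin28a, Lin28b, Igf2bp2 and Igf2bp3), against a background of 30.3% and 29.3%. Lin28b and Igf2bp2 entered through pro-B(−) alone and could only be called lower. The small difference of Lin28a, -0.18 (SE 0.06, adjusted p = 0.0468), lost its call under most of the alternatives tried. Between Lmo2 cells and pro-B(+), 9 of 9 members tested were called lower in Lmo2 cells and 0 higher, against a background of 43% lower and 34.9% higher (8 lower and Hmga1 not called with median scaling). Lin28b, Igf2bp2 and Igf2 had both arrays well above background in pro-B(+) alone, and the pro-B(+) arrays are the same as in the parental comparison.

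**Figure D3:**
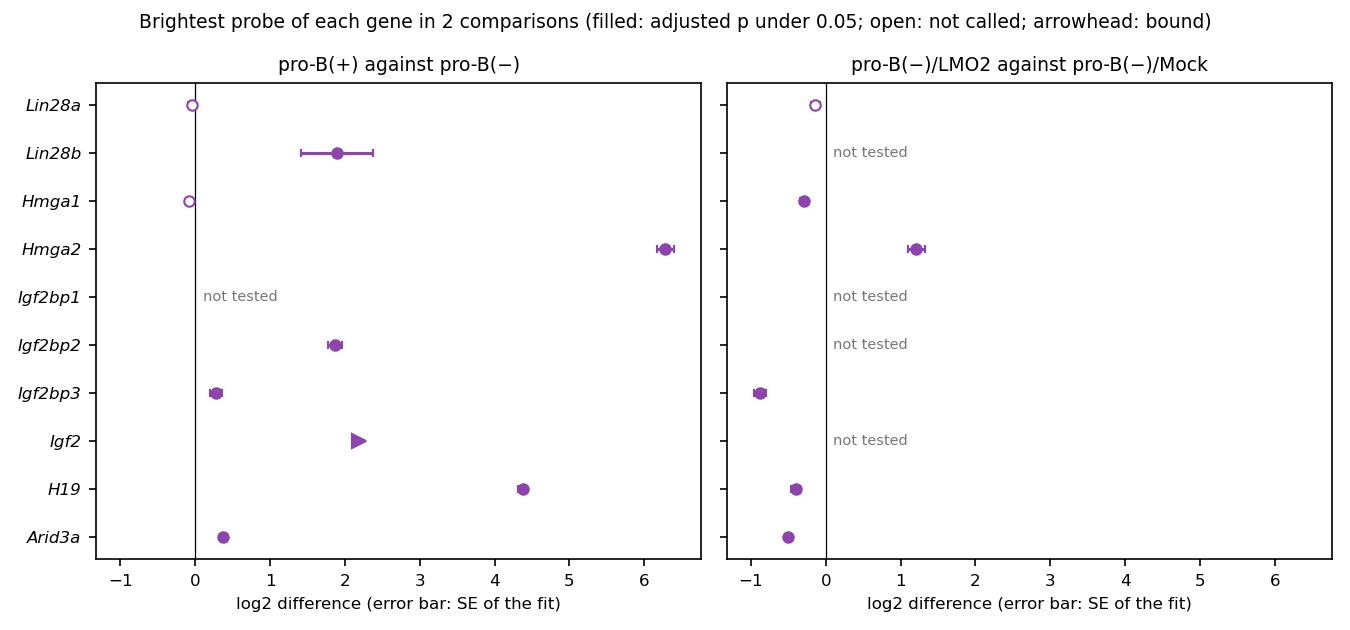
Log2 difference (x axis) of the brightest probe of each member (y axis) for pro-B(+) against pro-B(−) and for Lmo2 cells against empty-vector cells, both within 1 slide. Error bars are SEs of the fit, open points were not called, and an arrowhead is a bound. Hmga2 was higher in both comparisons, at 6.28 and 1.21, whereas H19, Igf2bp3 and Arid3a were higher in pro-B(+) and lower with Lmo2 (with median scaling, Igf2bp3 was -0.0039 and Arid3a 0.09 in the parental comparison).

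The circuit around LIN28 and let-7 was read from gene lists of known roles. For each list below, the shares over all named genes were 25.4% called higher and 26.7% lower in pro-B(+) against pro-B(−). With Lmo2 against empty vector they were 30.7% and 37.4%. Of 18 tested genes of let-7 biogenesis and LIN28 cofactors, 1 was higher and 8 were lower in pro-B(+), with 0 past 2-fold, and a median difference of -0.12 against -0.01 over all genes. Ago2, the slicing Argonaute, was 1.55-fold lower (adjusted p = 0.000191), and Tut4, the uridylase recruited by LIN28A, was 1.33-fold lower (adjusted p = 0.0025). Xpo5, which exports precursors from the nucleus, was 1.18-fold higher (adjusted p = 0.00648), a difference that turned to -0.05 (adjusted p = 0.332) with median scaling. With Lmo2, 6 of 17 were higher and 6 lower, again with 0 past 2-fold, among them Trim25, a LIN28 cofactor, at 1.42-fold higher (adjusted p = 0.000287) and Dgcr8, of the nuclear microprocessor, at 1.30-fold lower (adjusted p = 0.000276). With median scaling 0 were higher and 14 lower in pro-B(+), and 2 were higher and 8 lower with Lmo2. Trim71, itself a let-7 target, was well above background on 1 of 8 arrays.

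Transcripts that overlap let-7 hairpins in RefSeq were examined after the values were known. Wdr82, which spans Mirlet7g, differed between the parental lines by 0.08 (SE 0.04, adjusted p = 0.159) and between Lmo2 and empty vector by -0.0047 (SE 0.04, adjusted p = 0.925). Huwe1, which spans Mirlet7f-2 and Mir98, differed by -0.16 (SE 0.05, adjusted p = 0.0455) and 0.01 (SE 0.05, adjusted p = 0.816). From pro-B(−) to empty-vector cells both were 1.20-fold higher (adjusted p = 0.00286 and 0.00675). Mir100hg, which spans Mirlet7a-2, was well above background on 1 of 8 arrays.

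Reported let-7 targets outside the members did not move as 1 block. In pro-B(+) against pro-B(−), 10 of 25 tested were called higher and 5 lower, against 25.4% and 26.7% of all genes. Of these, 4 and 0 were past 2-fold. Among all genes 10.7% were called and at least 2-fold higher, and 2.27% called and at least 2-fold lower. The median was 0.11. With median scaling 5 were higher and 14 lower, at a median of -0.18. Ccnd1, the gene of cyclin D1, was 52.7-fold higher in pro-B(+) (adjusted p = 2.84e-07), Igf1r, the type 1 IGF receptor, 5.29-fold (adjusted p = 3.03e-06), Irs2, its adaptor, 3.46-fold (adjusted p = 1.40e-05) and Thbs1, thrombospondin, 3.05-fold (adjusted p = 2.64e-06). Among those lower, Cdk6 was 1.93-fold lower (adjusted p = 0.000494) and Zbtb16 1.79-fold lower (adjusted p = 2.54e-05).

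With Lmo2 against empty vector, 10 of 24 tested targets were higher and 11 lower, with 3 and 0 past 2-fold, where 8.25% and 2.88% of all genes passed 2-fold upward and downward. The median was 0.07, against -0.03 over all genes, and with median scaling 7 were higher and 12 lower, at a median of -0.14. Ccnd1 was 4.54-fold higher (adjusted p = 2.47e-06), Thbs1 4.49-fold (adjusted p = 1.48e-06) and Zbtb16 3.36-fold (adjusted p = 2.46e-06). Nras was 1.63-fold lower (adjusted p = 4.97e-05). Ccnd1 thus had a mean of 1.76 in pro-B(+), 0.80 in Lmo2 cells, -1.38 in empty-vector cells and -3.96 in pro-B(−), the same order as Hmga2.

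The IGF axis outside the members changed in both directions. Igf1, the other IGF ligand, had means of -0.25 in pro-B(+), 1.99 in pro-B(−), 1.01 in empty-vector cells and -2.51 in Lmo2 cells. It was 4.75-fold lower in pro-B(+) than pro-B(−) (adjusted p = 3.45e-06) and lower with Lmo2 than with empty vector by a log2 difference of -3.52 (adjusted p = 1.26e-06). Igf2r, which clears IGF2, was 2.42-fold and 2.16-fold lower in these comparisons (adjusted p = 2.19e-05 and 3.39e-05). The genes higher in pro-B(+) were Igf1r and Irs2, given above, and Igfbp4, by a log2 difference of 0.85. Igfbp4 was also higher with Lmo2, by 1.03. Igf1r, Irs2 and Insr are also counted among the let-7 targets, as are Arid3b and Zbtb16 of the lists below. In all, 3 of 9 tested were higher and 5 lower in pro-B(+) (median -0.36), and 4 of 11 were higher and 3 lower with Lmo2 (median -0.0055; -0.22 with median scaling).

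Of 21 imprinted growth genes with a probe, 10 were tested in the parental comparison, with 3 higher and 2 lower (median 0.20). With median scaling 3 were higher and 4 lower, at a median of -0.09. Cdkn1c, a cell cycle inhibitor, exceeded its pro-B(−) level in pro-B(+) at least 13.5-fold (adjusted p = 5.12e-05). Cdkn1c and Ascl2, also called higher, entered the test through pro-B(+) alone, so a difference was built into their entry. Dlk1, a Notch-family ligand of fetal tissues, was 8.69-fold higher (adjusted p = 1.38e-05), with means of 0.44 in pro-B(+), -2.68 in pro-B(−), -5.08 in empty-vector cells and -5.43 in Lmo2 cells. Airn, the noncoding RNA of the Igf2r domain, was 2.25-fold lower in pro-B(+) (adjusted p = 5.36e-06). With Lmo2, 1 of 7 was higher and 2 were lower, with 0 past 2-fold and a median of 0.04 (-0.17 with median scaling).

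Of 9 other high mobility group proteins tested, 7 were lower with Lmo2 than with empty vector and 1 was higher, where 37.4% and 30.7% of all genes were. The median of the list was -0.52 (8 lower and 1 higher with median scaling). Hmgb3 was 2.46-fold lower (adjusted p = 4.48e-06), Hmgn5 1.60-fold, Hmgb1 1.58-fold and Hmgn1 1.53-fold lower, and Hmgn3 was 2.34-fold higher (adjusted p = 0.00028). In pro-B(+) against pro-B(−), 2 were higher and 3 lower (median -0.10; 1 and 7 with median scaling), and Hmgn3 was 5.92-fold higher (adjusted p = 2.30e-05).

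The ARID family outside Arid3a had differences under 2-fold. In the parental comparison 1 of 11 tested was higher and 2 were lower, and with Lmo2 5 were higher and 1 was lower, with medians of -0.05 and 0.20 and 0 genes past 2-fold in either. With median scaling 0 were higher and 9 lower in pro-B(+), and 3 were higher and 4 lower with Lmo2, at medians of -0.33 and -0.014. Arid5a was 1.73-fold higher with Lmo2 (adjusted p = 2.14e-05), and Arid3b, the close paralogue of Arid3a, was 1.22-fold higher in pro-B(+) (adjusted p = 0.00266; log2 difference -0.0028 with median scaling) and 1.34-fold higher with Lmo2 (adjusted p = 0.000332).

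Among fetal and adult hematopoietic regulators, 5 of 9 tested were higher and 3 lower in pro-B(+), against 25.4% and 26.7% of all genes (median 0.20). With median scaling 4 were higher and 4 lower, at a median of -0.08. With Lmo2, 7 of 10 were higher and 2 lower, against 30.7% and 37.4% of all genes (median 1.38). The counts were the same with median scaling, at a median of 1.17. Dntt, the gene of terminal transferase, which is expressed in adult rather than fetal lymphoid progenitors, had means of -4.83 in pro-B(+), -1.91 in pro-B(−), 0.35 in empty-vector cells and 4.37 in Lmo2 cells. It was 7.56-fold lower in pro-B(+) than pro-B(−) (adjusted p = 2.64e-06) and 16.2-fold higher with Lmo2 than with empty vector (adjusted p = 1.44e-06). Plag1, a growth-promoting transcription factor, was 2.82-fold higher in pro-B(+) (adjusted p = 0.000368). Larger rises in pro-B(+) were those of Ly6a, Cebpa and Egr1, with log2 differences of 3.07, 2.55 and 1.64. These genes were also higher with Lmo2 than with empty vector, by 1.87, 1.74 and 0.89. Bhlhe41, a regulator of fetal-type B-1 cells, was at least 5.36-fold higher with Lmo2 (adjusted p = 0.000357), but it entered that test through Lmo2 cells alone.

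**Figure D4:**
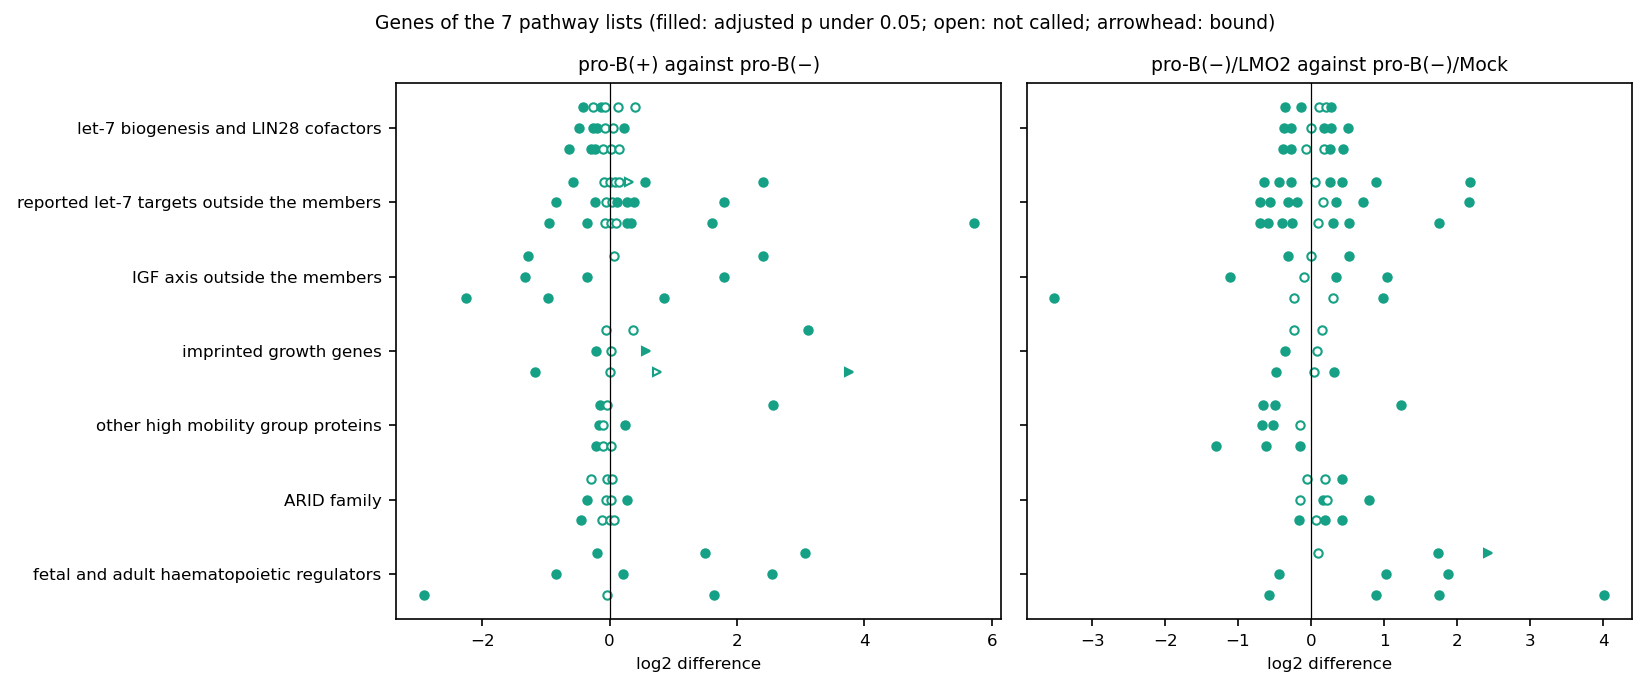
Log2 difference (x axis, a separate range in each panel) of each tested gene of the 7 pathway lists (y axis, spread vertically for legibility) in pro-B(+) against pro-B(−) and in Lmo2 cells against empty-vector cells. Filled points were called, open points were not, and arrowheads are bounds. Ccnd1 stands at 5.72 among the let-7 targets in the parental panel, and Igf1 at -3.52 in the IGF axis with Lmo2.

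Genes with the pattern most like a member were named by the root mean square (RMS) difference of log2 values over the 8 arrays, each gene centred on its own mean, among 13724 genes. For Lin28b they were Zfp783, Dhdh and Kbtbd6, at 1.48 to 1.54, and all 3 were well above background in both parental lines and on no transductant array. Between the parental lines Zfp783 and Dhdh ran opposite to Lin28b, with means of 0.12 and -1.94 in pro-B(+) and of 1.85 and -1.24 in pro-B(−). Kbtbd6 had -1.84 and -2.59 in these lines. Values below background entered the RMS as measured. For Hmga2 the most alike genes were Clec4a1 at 0.27, Sdr39u1 at 0.35 and Cd79b at 0.46. For H19 they were Rtn1, Ahrr and Gm6377, at 0.19 to 0.22, all 3 well above background in pro-B(+) alone. For Igf2bp3 they were Dusp6, Them4 and Nek6, at 0.08 to 0.09, for Igf2bp2 H2-Q8, Ddah2 and Rab19, at 0.12 to 0.13, and for Igf2 Oas1f, Sdc3 and Extl3, at 0.31 to 0.33.

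The labels were read against Lmo2, which had means of 2.10 in pro-B(+), 0.63 in pro-B(−), 0.35 in empty-vector cells and 0.96 in Lmo2 cells. The Lmo2 vector cells were thus 1.53-fold above empty vector (adjusted p = 5.55e-05). Whether the Lmo2 probe lies within the vector's insert is not known here, so this fold need not measure expression from the vector. Ebf1 had means of 1.33, 1.52, 1.49 and 1.13 in these groups, and where its probe lies relative to the deleted part is not known here, so it checks nothing. Markers of other cells were counted from lists. Over all named genes 25.4% were called higher and 26.7% lower in pro-B(+), and 30.7% and 37.4% with Lmo2. Of 14 stromal markers 11 were tested in the parental comparison, and 10 were higher and 0 lower in pro-B(+), with a median of 1.41 (9 and 1 with median scaling). Their summed linear level was 33.6 to 34.1 in pro-B(+), 15.5 to 16.1 in pro-B(−), 33.4 to 34.6 in empty-vector cells and 40.7 to 41.7 in Lmo2 cells, in units of each array's 75th percentile, and Dcn and Lum were not well above background in any group. These markers were higher in pro-B(+) along with H19 and Hmga2, and their part in those results was not tested.

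Myeloid markers summed to 49.1 to 49.4 in pro-B(+), 5.98 to 6.63 in pro-B(−), 6.57 to 7.0 in empty-vector cells and 21.3 to 22.7 in Lmo2 cells. The sums have the order of the Hmga2 means, although the pro-B(−) and empty-vector ranges overlapped, and their part in the Hmga2 result was not tested. The single markers did not all follow that order. From pro-B(−) to empty-vector cells, 1 of 4 tested was called higher and 2 lower. Mpo went from a mean of 0.58 to -0.41 and Csf1r from -0.79 to -1.38, whereas Itgam went from 2.01 to 2.44 and was lowest in pro-B(+), at 1.87. Of 7 myeloid markers 6 were called higher in pro-B(+) and 3 of 5 with Lmo2 (5 and 3 with median scaling), and S100a8 and S100a9 were well above background in pro-B(+) alone. Lyz2, S100a8 and S100a9 entered the parental test through pro-B(+) alone, and Lyz2 entered the Lmo2 test through Lmo2 cells alone. A difference was thus built into their entry. Progenitor markers were above background on at least 1 array for 10 of 11 genes in each group (Igll1 on 1 of 2 Lmo2 arrays). In pro-B(+), 3 of 11 tested were higher and 5 lower, and with Lmo2 2 of 10 were higher and 6 lower (3 and 7, and 2 and 8, with median scaling). Kit, the stem cell factor receptor gene, was 4.72-fold higher in pro-B(+) (adjusted p = 4.77e-06), and Rag1, of the V(D)J recombinase, was 6.86-fold lower with Lmo2 (adjusted p = 3.90e-05). Erythroid markers summed to 3.71 in pro-B(+), 2.30 to 2.61 in pro-B(−), 7.67 to 7.82 in empty-vector cells and 12.5 to 12.6 in Lmo2 cells. From pro-B(−) to empty-vector cells 3 of 3 tested were higher, with Lmo2 3 of 3 (2 with median scaling), and in pro-B(+) 1 of 3. Alas2, the erythroid enzyme of heme synthesis, was not well above background in any group. T cell markers summed to 16 to 21.7 over the 8 arrays. Of 5 tested, 2 were higher in pro-B(+), Cd3g by 4.86 and Cd3d by 1.52, and 1 lower (2 with median scaling). With Lmo2 3 were higher (2 with median scaling), with Cd3g at 3.97 and Cd3d at 1.56. Neither passed the flag in pro-B(−), nor did Cd3g in empty-vector cells.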

How the data were processed

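RNA of 4 groups, 2 samples each, was hybridised to one-colour Agilent arrays. The spot intensity came from Feature Extraction and was deposited by the authors, background subtracted, with flags for spots well above background, and each deposited log2 matrix column differed from it by 1 constant per array (75th percentile normalization in GeneSpring) and served as an alternative. Values here are log2 of the processed intensity minus the array's 75th percentile, without control spots or outliers. Depth on an array is signal over background: 56.5% to 61.2% of probes were well above it, no spot was saturated, and the number of arrays limits precision (2 against 2 cannot go below an exact permutation p of 0.333). Names came from RefSeq accessions (GRCm38.p6, 67.4% of probes; the H19 accession was named from the study's spreadsheet annotation), with the brightest probe standing for a gene. No coordinates of array features are given, since the array was annotated on another build.

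Tests used limma 3.58.1 (R 4.3.3) in 1 fit with 4 group means and 4 residual degrees of freedom, moderated over probes well above background on each array of 1 or more groups, with Benjamini-Hochberg adjustment over the probes tested in a comparison (those passing so in a compared group) and calls under 0.05. The test was run on simulated data with independent noise for each probe and array. Shared slide or culture effects were not simulated, so that run says nothing of them. "At least" folds set a group below background on all its arrays to the higher of its own signal and the array's lowest signal well above background, as mean log2. The adjusted p beside such a fold tests the fitted difference of the values as measured, below background included, not the bound. A probe that passed the flag in only 1 compared group had a difference built into its entry, among list genes as among members. Members, lists and tests were chosen with earlier results of these data known. Named genes were all member probes, up to 4 called genes per list and direction with the largest change, from which those of interest are given, and the 3 genes most like each member whose group means span at least 1 log2. Alternatives were median scaling, the deposited log2 matrix, normexp, filters, an intensity trend, a replicate block and left-out arrays. Same-numbered replicates did not deviate together (r from -0.0272 to 0.0515), so numbers were not taken as pairs.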

Additional observations from a re-analysis of the deposited data

How the results depend on the processing

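Of the 5 counts of called probes, 1 moved by over 1.5 times: pro-B(+) against pro-B(−), from 11402 to 18512 with median scaling, where the share of calls that were higher went from 42.4% to 15.8%. With Lmo2 against empty vector that share went from 43.7% to 24.5%. Leaving out 1 array gave 8626 to 10854 calls for pro-B(+) against pro-B(−), 12879 to 14532 for Lmo2 against empty vector, 10729 to 12869 for pro-B(−)/Mock against pro-B(−), 16978 to 18217 for pro-B(−)/LMO2 against pro-B(+), and 11738 to 12163 for the difference of the first 2 effects. With the replicate number as a block, the first 2 comparisons had 11052 and 14453 calls against 11402 and 14725, and the only member call lost was Lin28a in pro-B(−)/Mock against pro-B(−) (-0.18, adjusted p = 0.0752).

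Signs turned for 6 of 59 member differences, all small. With median scaling these were Igf2bp3 (-0.0039) and the dimmest Hmga1 probe (-0.18) in the parental comparison. With normexp on the median spot signal, chosen after seeing the data because the mean spot signal was not analysed here, they were that Hmga1 probe in the parental comparison (-0.0067) and with Lmo2 (0.031), and Lin28a in the difference of effects (-0.036). With 1 array left out, Lin28a in the parental comparison ranged from -0.10 to 0.016, that Hmga1 probe from -0.026 to 0.23, and the brightest Hmga1 probe in pro-B(−)/Mock against pro-B(−) from -0.049 to 0.0047 (0.0011 and 0.0047 where turned); the lone array of a group was taken to vary like the others. Of 893 member values under alternatives, 829 kept direction and side of the threshold. The cause of these changes was not tested. Normexp on the mean signal was not run. Probes near background limit Igf2, Igf2bp1, Igf2bp2 and the second H19 probe.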
